A study of Homo sapiens with 40 samples.

Results

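The untagged parental line of the degron experiment is KMS-11, a human multiple myeloma cell line with the t(4;14) translocation, kept with the compound dTAGV-1 although its NSD2 carries no tag. Its H3K27me3 peak lists were chosen by their labels: 6 libraries at days 7, 14 and 21 of the compound, 2 for each day, and 2 libraries at day 0, which makes 8 of the 30 H3K27me3 libraries with a peak list and 8 of 40 samples in the series. The labels give the genotype of all 8 as WT and the 2 day 0 libraries as untreated. The series compared this line with NSD2-dTAG clones 8 and 11, which were derived from it and carry a dTAG knock-in at NSD2, and it also holds NSD2 knockout (KO) clones with their own parental line. The 100 nM given in the labels is the dose for NSD2-dTAG cells, and no dose is stated for the untagged line. Every treated library in this line therefore differs from day 0 in both the compound and the time in culture, and the labels give no untreated library at day 7, 14 or 21, so these cannot be told apart. No label names separate cultures for the 2 replicates of a day, so the spread behind a p-value is that of libraries and can be technical.

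H3K27me3 is the trimethyl mark that the Polycomb complex PRC2 places on histone H3 over silent genes and broad silent domains. NSD2 writes H3K36me2, a mark on the same histone tail that hinders PRC2, and t(4;14) cells make NSD2 in excess. dTAGV-1 binds the tag on a protein and the VHL ubiquitin ligase together, so that the tagged protein is degraded, and in cells without a tag it can still bind VHL, the ligase that marks the hypoxia factors HIF1A and EPAS1 for destruction. The line thus gives peak lists of the mark after the compound and weeks of culture together, without a degron.

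The mark was measured by CUT&Tag, in which an antibody brings a transposase to the chromatin that carries the mark. A gene, a 25-kb window (bin) of an autosome or a promoter was scored by the percent of its bases inside a called peak. On the autosomes and X there were 38470 to 107673 peaks per library, with a median width of 622 to 790 bp. Depth is not listed, and a background pileup solved from the lists (fragments per position) stands for it. It ran from 1.11 to 3.26 in these libraries. Replicate 1 was deeper than replicate 2 on each of the 4 days.

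Promoters stood out in all 8 lists. Over the 15412 genes with a promoter sequence, promoters (250 bases before to 50 after the start) were on average 39.0% to 62.8% covered, against 4.79% to 10.1% of gene bodies. The promoters of housekeeping genes, which the cells use, were more often covered than those of the HOX genes, the classical Polycomb targets: at day 0 over 50% of the window was covered for 13 and 8 of 15 housekeeping promoters and for 4 and 4 of 20 HOX promoters. Gene bodies had the other order. The median HOX gene was 23.7% and 9.28% covered at day 0 and the median housekeeping gene 1.96% and 0%. The promoter peaks go against the labelled mark, which is known from silent genes, and the part of antibody specificity or of open chromatin in them was not tested. For the cell type, the 19 plasma cell genes had day 0 medians of 3.28% and 0.736%, the 18 B cell genes 6.99% and 2.45%, the 18 T cell genes 9.60% and 1.48% and the 18 monocyte genes 0.954% and 0%. Low coverage alone did not mark the genes of the lineage: the monocyte gene CD14, foreign to a plasma cell, and the B cell gene MS4A1 were outside peaks in all 8 libraries.

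The first comparison asked whether the amount of called H3K27me3 drifts over the days. In replicate 1 called length was 76.2, 75.3, 83.8 and 99.8 Mb on days 0, 7, 14 and 21, and in replicate 2 it was 39.0, 48.2, 55.2 and 55.7 Mb. Within each replicate number day 21 was the highest, but the replicates lay so far apart that every day overlapped the others. The mean of the treated libraries was 69.7 ± 20.0 Mb (SD, n = 6), against 57.6 ± 26.4 Mb at day 0 (SD, n = 2), a difference of 12.1 Mb (exact two-sided permutation test, p = 0.571; the smallest p that 28 splits allow is 0.0357). The fitted trend was 20.5 Mb per 21 days, with exact permutation p = 0.325 over all arrangements of the days. Replicate numbers were taken to pair the libraries in this line, which is an assumption. With days permuted within replicate number the same slope had exact p = 0.0104, or 0.0521 after adjustment over the 5 measures tested in this way.

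Depth moved in the same direction. Background pileup was 2.22 and 1.11 at day 0, 1.93 and 1.24 at day 7, 2.42 and 1.57 at day 14, then 3.26 and 1.48 on day 21, a slope of 0.758 per 21 days (exact p = 0.299; within replicate number p = 0.0347, adjusted 0.0579). Length per unit of pileup on the same days was 34.3, 39.0, 34.6 and 30.6 Mb in replicate 1 and 35.1, 38.9, 35.3 and 37.7 Mb in replicate 2. Its slope was -1.74 Mb per 21 days (exact p = 0.560; within replicate number p = 0.576). The slope was 3.12 Mb with peaks of -log10 q of at least 5, 1.39 Mb with peaks joined over 3 kb and 1.17 Mb without day 21 replicate 1, so its direction was not settled. Leaving out day 21 replicate 1, the deepest of the 30 libraries, cut the length trend to 4.64 Mb and the pileup trend to 0.0809, and without day 0 replicate 2 the treated mean minus day 0 was -6.56 Mb. The part of depth in the length trend was not tested beyond these values.

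**Figure D1:**
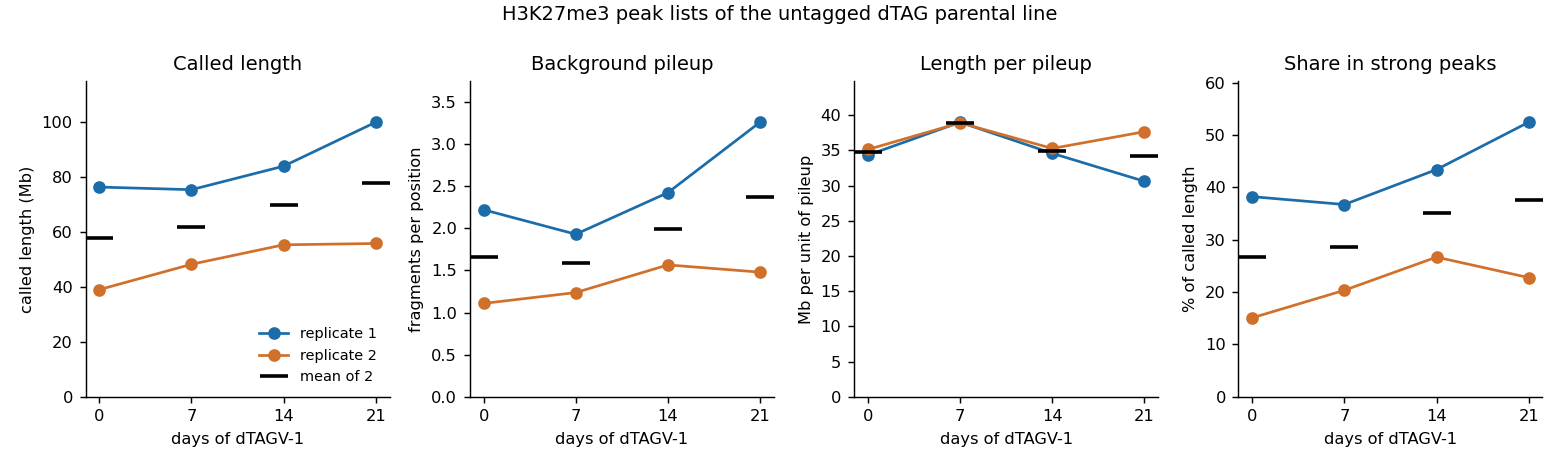
Each point is 1 parental library (blue, replicate 1; orange, replicate 2) and each black bar the mean of 2, plotted against days of dTAGV-1 for called length (Mb), background pileup (fragments per position), length per unit of pileup (Mb) and the share of called length in strong peaks (%). Length, pileup and strong share are higher at day 21 than at day 0 in both replicates, while length per pileup lies at 30.6 and 37.7 Mb at day 21 and at 34.3 and 35.1 Mb at day 0.

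The make-up of the lists was followed over the same days. The share of called length inside protein-coding genes was 51.1% and 52.2% at day 0, 51.3% and 51.9% at day 7, 50.8% and 52.3% at day 14, then 50.9% and 51.2% on day 21, with a slope of -0.550 points per 21 days (exact p = 0.337). Strong peaks, those with a -log10 q of at least 5, held 38.2% and 15.1% of the length at day 0, 36.7% and 20.4% at day 7, 43.4% and 26.7% at day 14, then 52.5% and 22.8% on day 21. That slope was 11.8 points (exact p = 0.363; within replicate number p = 0.0278, adjusted 0.0579). Of the day 21 bases, 60.6% and 48.0% lay inside the day 0 list of the same replicate number. Between the replicates of a day, 45.6% to 90.0% of the peaks in 1 list shared 1 bp or more with the partner list (median 70.8%). Between lists of different days the range was 56.8% to 90.5% with the same replicate number (median 73.3%). With the other replicate number it was 34.1% to 93.1% (median 72.4%). The median was 87.7% for replicate 2 peaks in replicate 1 lists and 50.2% for the reverse.

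The same measures were then set beside those of the degron clones, each of which is 1 clone. From day 0 to day 21 of the same replicate number the genic share changed by -0.589 points on average in the parental line (-0.982 and -0.196), against -8.54 points in the clones (-8.88 to -7.95 in 4 pairs). The share in strong peaks changed by 11.0 points in the parental line (7.68 and 14.2), against -17.3 points in the clones (-25.5 to -5.59). In both measures the parental pairs lay above every clone pair on each of the 3 days. The length in strong peaks itself was 1.80 and 2.16 times that of day 0 in the parental line at day 21. In the clones it was 0.730 to 2.24 times. Called length at day 21 was 1.37 times that of day 0 in the parental line and 2.43 times in the clones, and length per pileup 0.982 times and 1.43 times. With 2 parental and 4 clone pairs the exact two-sided permutation test cannot go below p = 0.0667, the value of both shares at day 14 and day 21, and none of the 12 such tests had an adjusted p under 0.133. In the clones 22.8% to 33.6% of the day 21 bases lay inside the matching day 0 list, against the 60.6% and 48.0% of the parental line. That share is lower for a list that grew more, by its length alone. Of the day 0 bases, 79.3% and 68.7% lay inside the matching day 21 list in the parental line, against 56.8% to 75.2% in the clones. Those ranges overlapped.

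**Figure D2:**
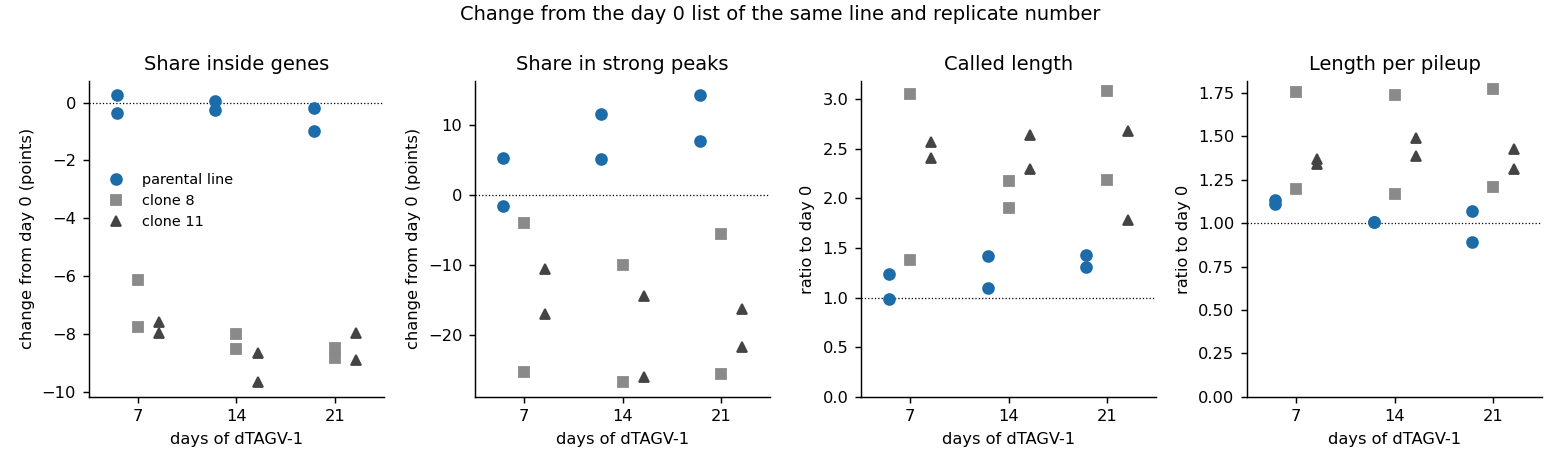
Points are pairs of a treated and a day 0 library of the same line and replicate number (blue circles, parental line; grey squares, clone 8; dark triangles, clone 11) at days 7, 14 and 21, shown as change in the genic share and the strong-peak share (percentage points) and as ratio of called length and of length per pileup. The parental pairs stay between -0.982 and 0.250 points in the genic share, where every clone pair lies below -6.12.

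The next comparison asked whether single genes change. Of 19451 protein-coding genes, 13977 had a mean coverage between 1% and 99% over the 30 libraries and were tested with limma. At an adjusted p under 0.05, 0 genes were called at day 7, 0 at day 14 and 0 for the mean of days 7 to 21 (0% of genes in each direction), with 292, 349 and 423 at an unadjusted p under 0.05. At day 21, 2 genes were called higher (0.0143%) and 0 lower, and the same 2, USP7 and TMEM216, were called in the trend over days, with 561 at an unadjusted p under 0.05. With replicate number as a block the trend calls were CHD4 and USP7, and day 21 added CEP295NL to those 2.

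USP7, a ubiquitin protease that acts on MDM2 and p53, lies on chromosome 16 (8892097 to 8963906, hg38). It was 0.905% and 0% covered at day 0, 2.00% and 1.03% at day 7, 1.66% and 1.63% at day 14, then 4.49% and 4.28% on day 21. Every treated library was above both day 0 libraries, and the 2 at day 21 stood above the rest. Its trend was 3.58 ± 0.498 points per 21 days (SE; limma adjusted p = 0.0173, and 0.0217 with the block). In the clones it differed by -0.00244 points between the same days, and the difference from the parental line was -3.94 points (limma adjusted p = 0.00934). USP7 was chosen by its parental difference, which is part of this contrast, so that p is not separate support. The trend call was lost without day 0 replicate 2 (adjusted p = 0.0905), without day 21 replicate 1 (0.0507) and with peaks joined over gaps of 3 kb (0.529).

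TMEM216, a membrane protein of the primary cilium, lies on chromosome 11 (61392587 to 61398846). Coverage was 0% in both day 0 libraries, 4.82% and 6.31% at day 7, 12.2% and 4.07% at day 14, then 12.7% and 9.81% on day 21. At day 0 the untreated clones had 4.82% and 4.82% (clone 8) and 0% and 1.49% (clone 11) covered. All 6 treated parental libraries had a peak in TMEM216 and neither parental day 0 library did. Its trend was 10.9 ± 1.59 points (SE; limma adjusted p = 0.0173), but 0.0963 with the replicate block and 1.00 in lists shortened to equal length, where the estimate was 4.08 points. It was also not called without either day 0 library (adjusted p = 0.0835 and 0.0757) or without day 21 replicate 1 (0.105). In a fit of the 8 parental libraries alone, neither TMEM216 nor USP7 was called (adjusted p = 0.950 and 0.783).

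CHD4, the remodelling ATPase of the NuRD repressor complex (chromosome 12, 6570082 to 6607379), was 0% covered in all 4 libraries at days 0 and 7, 3.25% and 3.57% at day 14, then 5.15% and 4.62% on day 21. The 2 late days stood apart from the 2 early ones. The trend of 5.42 ± 1.11 points (SE) was called with the replicate block (limma adjusted p = 0.0217) and not without it (0.384). In the untreated clones at day 0, CHD4 was 0% and 2.36% (clone 8) and 0% and 3.20% (clone 11) covered. All 3 genes are widely expressed, and the covered stretches made up at most 12.7% of any of them.

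The genes next in order of unadjusted p were not called, and their values are given as they stand. FOLR2, a folate receptor of macrophages, was 0% and 0% covered at day 0, 8.16% and 0% at day 7, 11.4% and 15.2% at day 14, then 14.6% and 17.6% on day 21 (limma adjusted p = 0.312 for the trend). In the clones FOLR2 differed by 40.3 points between day 21 and day 0 (adjusted p = 4.15e-08), which was 24.2 points more than in the parental line (0.0151). TOR1B, an ATPase of the endoplasmic reticulum, was 4.96% and 2.48% covered at day 0, 5.64% and 4.40% at day 7, 4.77% and 7.74% at day 14, then 17.5% and 15.2% on day 21 (adjusted p = 0.407). LMO4, a LIM-only transcription cofactor, was 0% covered at days 0 and 7, 5.43% and 2.35% at day 14, then 3.01% and 2.87% on day 21 (0.439). The others were TTC33, NAA40, RMND5B, ZNF778, POLDIP3, POMT1, ZNF653, MFSD6L, PLTP, MFN2, H1-10, HSH2D, NMT1 and CEBPD, with adjusted p of 0.384 to 0.560. All 20 genes named so far for the trend had a positive estimate.

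On the unscaled measure, genes lower in every treated library were fewer than genes higher in every one. All 6 treated libraries lay above both day 0 libraries for 457 genes (3.27% of those tested) and below both for 112 (0.801%). If the libraries were interchangeable and values were never tied, 1 of 28 splits, a share of 0.0357, would give each pattern. Both shares lay below that, as do those of bins and promoters given further on. Neither condition held: day 0 has the shallowest of the 8 libraries beside a deeper one, and 690 tested genes were at 0% in all 8. The lower shares therefore say nothing on an effect of the days. Coverage went up at each step in both replicates for 150 genes (1.07%) and down at each step for 3 (0.0215%). After scaling by called length 1 gene was called higher and 10 lower over days 7 to 21, and lists of equal length gave 1 and 4, so the larger direction depends on the scale. IRF7, chosen here after its values were seen, is the interferon regulatory factor that drives type I interferon genes. It was 40.8% and 39.8% covered at day 0, 9.16% and 8.83% at day 7, 11.2% and 7.95% at day 14, then 17.8% and 7.42% on day 21. Both day 0 libraries stood above all 6 treated ones, but the mean difference of -29.9 points was not called (limma adjusted p = 0.273). With coverage scaled by called length it was called (adjusted p = 0.0184). In the untreated clones at day 0, IRF7 was 13.8% and 2.47% (clone 8) and 14.7% and 9.31% (clone 11) covered, well below the parental day 0 values. LYPD3, a surface protein of epithelial cells also chosen after its values were seen, was between 22.2% and 29.1% covered in the 6 treated libraries, against 43.8% and 61.6% at day 0 (adjusted p = 0.632). The untreated clones at day 0 had 55.6% and 22.8% (clone 8) and 23.7% and 22.1% (clone 11) of LYPD3 covered.

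**Figure D3:**
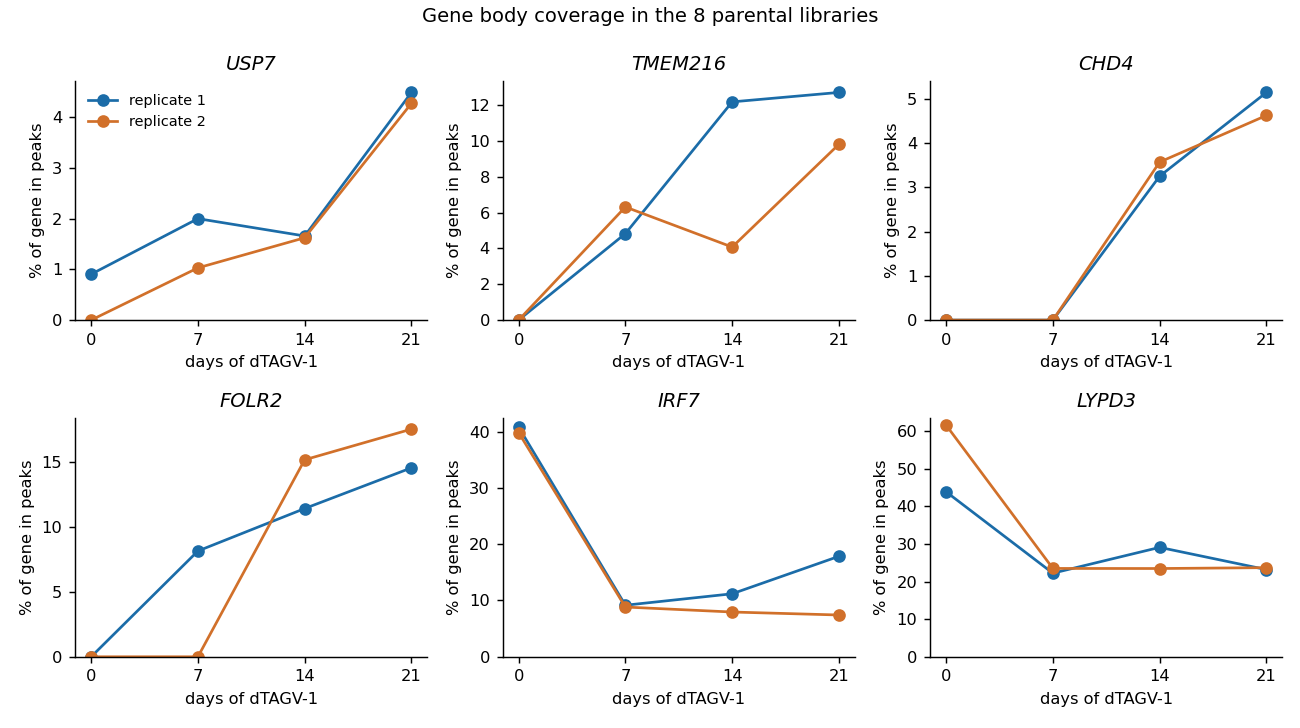
Each point is the percent of a gene body inside peaks in 1 parental library, against days of dTAGV-1, for USP7, TMEM216, CHD4, FOLR2, IRF7 and LYPD3 (blue, replicate 1; orange, replicate 2). USP7 reaches 4.49% and 4.28% at day 21, and IRF7 lies at 7.42% to 17.8% on the treated days against 40.8% and 39.8% at day 0.

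Most genes shifted a little in the same direction as called length. The median of the 13977 trends was 0.874 points per 21 days, and 10506 genes had a positive trend against 2781 with a negative one. After scaling coverage by called length the median was -0.0322, and with background pileup as a covariate -0.198, so the direction of the bulk rests on the scale. The lists below are to be read against these medians.

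The pathway of the ligase that dTAGV-1 recruits had about the median of all genes. Of 28 genes of the HIF and VHL axis 21 were tested, 0 were called, 15 had a positive and 6 a negative trend, and their median was 0.879 points, beside 0.874 over all tested genes (scaled by length, -0.191). ADM, the hypoxia-induced peptide adrenomedullin, was 59.7% and 100% covered at day 0, 58.8% and 52.4% at day 7, 58.8% and 52.8% at day 14, then 68.5% and 52.2% on day 21. CA9, the hypoxia-induced carbonic anhydrase, was 37.7% and 20.9% covered at day 0, 21.3% and 7.49% at day 7, 33.5% and 15.3% at day 14, then 26.8% and 7.23% on day 21. Neither gene separated the treated libraries from day 0. LOX, a collagen-crosslinking enzyme, was outside peaks at day 0, 2.64% and 0% covered at day 7, 3.62% and 0% at day 14, then 6.09% and 6.76% on day 21 (unadjusted p = 0.0139, limma adjusted p = 1). All 7 tested genes of the ligase itself had a positive trend, with a median of 0.218 points, but scaled by called length the median was -0.106. VHL was between 2.44% and 4.05% covered in the treated libraries, against 3.07% and 2.20% at day 0.

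Genes that write or oppose the mark were looked at next. The 7 tested genes of PRC2 had a median trend of 0.369 points (4 positive, 3 negative) and the 7 of the NSD and H3K36 enzymes 0.187 points (5 and 2), with 0 called in each. EED, the PRC2 subunit that reads H3K27me3, was between 2.35% and 3.41% covered in the treated libraries, against 4.47% and 2.88% at day 0. Developmental genes had larger shifts on the unscaled measure: the 35 tested HOX genes had a median trend of 2.40 points (25 positive, 8 negative) and 81 developmental transcription factors 2.39 points (63 and 12). After scaling by called length these medians were -0.900 and 0, so their direction depends on the scale too. In 20 of the 101 developmental factors no library had a peak. HOXD4 was 0% covered in all 6 treated libraries, against 23.7% and 27.5% at day 0 (unadjusted p = 0.0478 for the trend, limma adjusted p = 1). NKX2-5, a cardiac homeobox gene, was 5.49% covered in day 14 replicate 1 and 0% in the other 5 treated libraries, against 14.1% and 3.91% at day 0.

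Among lineage genes the medians were 1.70 points for 15 plasma cell genes, 2.68 for 16 B cell genes, 0.874 for 16 T cell genes and 1.33 for 13 monocyte genes, with 0 called in any list. XBP1, the secretory transcription factor of plasma cells, was 6.07% and 0% covered at day 0, 4.13% and 0% at day 7, 21.9% and 35.4% at day 14, then 7.35% and 0% on day 21. It was high at day 14 only. The 14 tested housekeeping genes had a median of 1.46 points, among them B2M at 6.15% and 0% at day 0, 2.35% and 18.8% at day 7, 19.0% and 6.15% at day 14, then 18.4% and 18.7% on day 21 (limma adjusted p = 1).

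**Figure D4:**
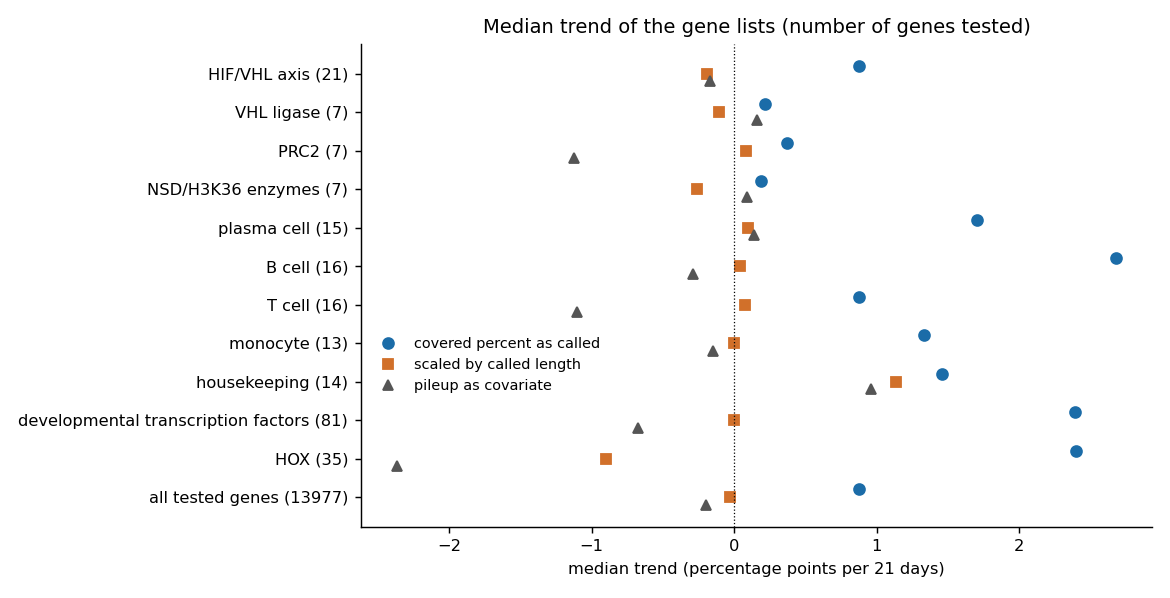
Median trend of each gene list in percentage points per 21 days, with the number of genes tested, on 3 scales: coverage as called (blue circles), scaled by called length (orange squares) and with pileup as covariate (grey triangles). On the first scale every list lies right of 0, HOX genes at 2.40, and on the others HOX genes lie left of 0, as all tested genes do.

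The genes that answer to NSD2 loss were next followed in the untagged line. In the clones, 3697 genes were called higher (26.5%) and 69 lower (0.494%) at day 21 against day 0. With coverage scaled by called length these were 2250 and 4413, so the larger direction in the clones depends on the scale. In the parental line 0 of the 3697 were called, and their median day 21 difference was 0.533 points, beside 0.848 for all tested genes and 7.75 in the clones. Scaled by called length the parental median was 0.0533. In the KO clones against their own parental line 2510 genes were called higher (18% of those tested) and 104 lower (0.744%). With scaling by called length 1608 were higher and 1893 lower. The 2510 genes had a median day 21 difference of 0.305 points in the untagged line, with 0 called. Their mean there was 1.77% at day 0 and 2.55% at day 21. CTSK, the bone protease cathepsin K, was 10.4% and 0% covered at day 21, against 0% and 0% at day 0, while in the clones its difference was 30.6 points (limma adjusted p = 0.000290). SLAMF8, an immune receptor, was 37.8% and 23.7% covered at day 21, against 19.2% and 0% at day 0. MYBPHL, a muscle protein gene, was 35.1% and 19.6% covered at day 21, against 22.0% and 0% at day 0. CIDEC, a lipid droplet gene, was 3.73% and 0% covered at day 21, against 8.60% and 0% at day 0. Of these 4 genes chosen from the clones, CIDEC alone had a called difference between clones and parental line, of 28.2 points (limma adjusted p = 0.0455).

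Tested over all genes, the day 21 change was called higher in the clones than in the parental line for 270 genes (1.93%) and lower for 12 (0.0859%). With coverage scaled by called length these were 673 and 771, so the split between directions depends on the scale. With 1 of the 4 parental libraries at day 0 or day 21 left out, the count of 282 fell to 8 (day 0 replicate 1), 27 (day 0 replicate 2), 34 (day 21 replicate 1) or 78 (day 21 replicate 2).

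Over 25-kb bins the untagged line gave no call. In none of the 5 comparisons was any of the 48605 tested bins called higher or lower (0% in each direction), and 963 had an unadjusted p under 0.05 in the trend (limma). All 6 treated libraries were above both day 0 libraries in 909 bins (1.87%) and below in 220 (0.453%), and coverage went up at each step in both replicates in 282 (0.58%) and down in 7 (0.0144%). The lowest unadjusted p belonged to a bin inside USP7 (chromosome 16, 8900001 to 8925000), which was 2.22% and 0% covered at day 0, 3.24% and 1.58% at day 7, 1.81% and 2.12% at day 14, then 6.11% and 8.44% on day 21. Another lay at PRDM1, the master factor of plasma cells (chromosome 6, 106100001 to 106125000), at 8.95% and 6.86% at day 21, against 2.12% and 0% at day 0.

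The greater length at day 21 was seen on every autosome. Covered percent of all autosomal bins was 2.67% at day 21 and 1.98% at day 0, a ratio of 1.35, and the ratio was 1.44 in bins without a protein-coding gene, 1.41 in bins wholly inside genes and 1.27 in bins that hold a gene's edge. Across chromosomes it ran from 1.26 on chromosome 19 to 1.46 on chromosome 18. In the clones, for the same days, the ratio ran from 1.08 on chromosome 19 to 4.93 on chromosome 18, and it was 3.28 in bins without a gene. In the clones 25028 bins (51.5%) were called higher and 172 (0.354%) lower at day 21, and in the KO clones against their own parental line 18239 (37.5%) and 255 (0.525%). Scaled by called length, these were 18295 and 8389 in the degron clones and 13466 and 6005 in the KO clones. The difference between clones and parental line was called higher in 1631 bins (3.36%) and lower in 24 (0.0494%). With scaling by called length these were 3520 and 1967, and with 1 of the 4 parental libraries at day 0 or day 21 left out between 0 and 9 bins were called.

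**Figure D5:**
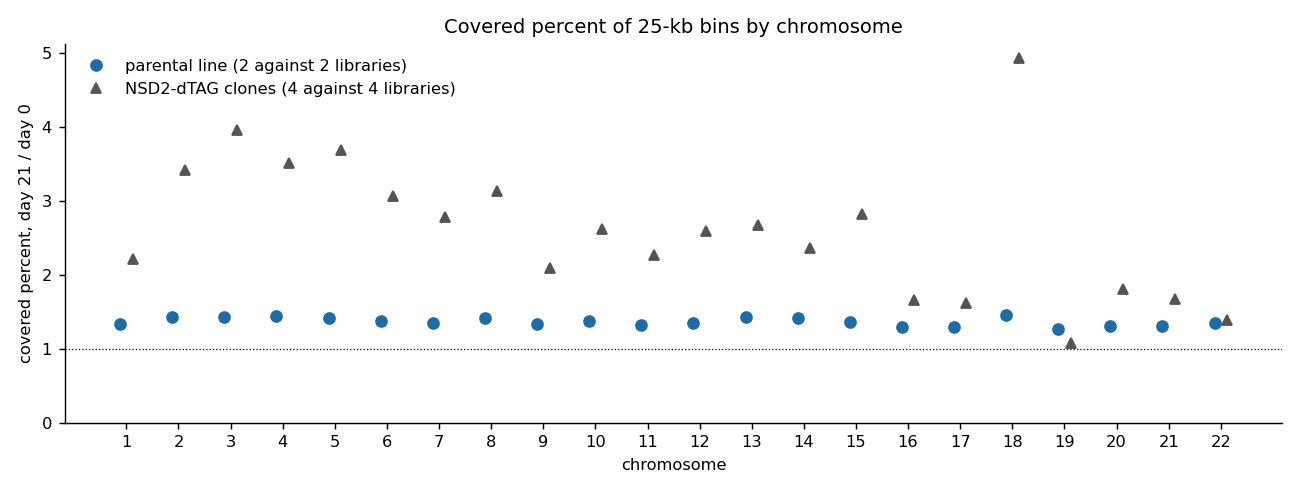
Ratio of the covered percent at day 21 to that at day 0, over all 25-kb bins of each autosome, for the parental line (blue circles, means of 2 against 2 libraries) and the clones (grey triangles, 4 against 4). The parental ratios lie in a narrow band between 1.26 and 1.46, while the clone ratios reach 4.93 on chromosome 18.

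Promoters were scored as a further readout, added after the files had been seen, because peaks gathered there. Of the windows with called changes, 3 are shown here from RefSeq (GRCh38.p14), with each CG pair in capitals because CG-rich starts are the usual site of Polycomb recruitment. SMPD4 and ASPM were called for days 7 to 21, and COMP is shown for its trend.
SMPD4, chr2:130181553-130181852, minus strand: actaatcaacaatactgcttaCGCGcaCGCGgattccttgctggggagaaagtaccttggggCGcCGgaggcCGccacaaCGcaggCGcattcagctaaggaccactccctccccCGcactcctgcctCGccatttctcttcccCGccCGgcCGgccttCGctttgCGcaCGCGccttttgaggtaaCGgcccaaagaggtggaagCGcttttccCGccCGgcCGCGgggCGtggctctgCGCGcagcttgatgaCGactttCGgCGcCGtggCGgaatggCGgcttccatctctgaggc
ASPM, chr1:197146620-197146919, minus strand: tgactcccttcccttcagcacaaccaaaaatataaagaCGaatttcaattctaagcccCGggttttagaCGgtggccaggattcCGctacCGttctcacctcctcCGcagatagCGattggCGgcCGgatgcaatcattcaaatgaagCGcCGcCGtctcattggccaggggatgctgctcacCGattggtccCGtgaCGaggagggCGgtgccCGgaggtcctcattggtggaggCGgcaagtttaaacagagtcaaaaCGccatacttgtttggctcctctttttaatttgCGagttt
COMP, chr19:18791256-18791555, minus strand: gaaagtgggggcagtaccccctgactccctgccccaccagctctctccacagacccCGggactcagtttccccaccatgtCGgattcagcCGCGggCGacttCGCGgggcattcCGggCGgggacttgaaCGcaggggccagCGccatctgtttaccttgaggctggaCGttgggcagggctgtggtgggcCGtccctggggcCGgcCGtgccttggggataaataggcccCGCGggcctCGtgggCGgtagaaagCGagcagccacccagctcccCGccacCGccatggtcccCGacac
The CG pairs number 33 in SMPD4, 20 in ASPM and 23 in COMP, and the median of all 15412 windows is 22, with at least 1 in 98.4% of them (CG reads the same on both strands).

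Of 10065 promoters tested, 18 were called higher (0.179%) and 1 lower (0.00994%) over days 7 to 21 against day 0, and 9 higher (0.0894%) and 0 lower in the trend. With the replicate block these were 11 and 1, and 10 and 0. With coverage scaled by called length the direction turned for days 7 to 21, with 0 called higher and 5 lower, and the trend had 6 and 1. It did not turn in lists of equal length, with 42 higher and 9 lower and 20 and 7 in the trend. With pileup as covariate the counts were 16 and 0, and 3 and 0 in the trend. All 6 treated libraries lay above both day 0 libraries at 208 promoters (2.07%) and below both at 22 (0.219%), and 10 (0.0994%) went up at each step in both replicates. The SMPD4 window, of a neutral sphingomyelinase gene, was 99.3% covered at day 14 replicate 2 and 100% in the other 5 treated libraries, against 0% in both day 0 libraries, a difference of 99.9 ± 6.72 points (SE; limma adjusted p = 1.32e-07). ASPM, a spindle gene of dividing cells, was 100% covered in all 6 treated libraries, against 0% and 29.3% at day 0 (adjusted p = 0.00219). COMP, a cartilage matrix gene, was 0% covered through day 14 in all 6 libraries and 93.7% and 100% at day 21 (trend, adjusted p = 1.62e-07). ZNRF4 was 0% covered at days 0 and 7, 0% and 17.3% at day 14, then 100% and 96.3% on day 21. FLCN, ZNF420, PKN2 and FAM210A had 0% in both day 0 libraries and were among the 18, but none of these 4 was called with the block (adjusted p = 0.0537 to 0.237).

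GFRA1, a receptor subunit for the growth factor GDNF, was the single promoter called lower. Its window was at most 0.667% covered in the 6 treated libraries, against 52.0% and 45.0% at day 0, a difference of -48.3 ± 9.62 points (SE; limma adjusted p = 0.0454, and 0.200 with the block). Windows at 0% or 100% in both libraries of a group add no spread, so the p of such promoters can be too small, and 0 promoters were called with peaks of -log10 q of at least 5 or in a fit of the 8 parental libraries alone. In lists shortened to equal length the SMPD4 difference over days 7 to 21 was 16.7 points, against 99.9 as called. Its trend was -15.0 points there, against 89.9 as called. ASPM had 35.3 points over days 7 to 21 in the shortened lists (limma adjusted p = 0.869), against 85.3 as called. Neither was called in those lists. Without day 0 replicate 1 the calls for days 7 to 21 numbered 1125, against 19.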

How the data were processed

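H3K27me3 CUT&Tag of KMS-11 cells started from 50000 nuclei and 13 PCR cycles per library, per the labels' protocols. The tools named in the submitters' processing notes, without their roles, are MACS3 3.0.2, fastp 0.24.0, Picard, Bowtie2, ChIPseeker 1.42.1, SAMtools, DESeq2 and deepTools 3.5.1, with the build hg38. Calling options, and any use of the 2 IgG libraries, are not given in the sources read. The authors deposited 1 list per library in the broadPeak layout, with replicates not pooled. Its score is 10 times the -log10 q in the deposited values, its fold is a deposited ratio of peak to background, and the -log10 p and -log10 q are the authors' values for each peak.

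Peaks on chromosomes 1 to 22 and X were merged, which left out 112 to 259 peaks on other sequences in the parental lists. Features were scored by the percent of bases in peaks, for 19451 protein-coding genes, each 1 kb or longer (RefSeq, GRCh38.p14, the assembly of hg38), 114927 autosomal bins of 25 kb and 15412 RefSeq promoter windows. limma 3.58.1 in R 4.3.3 fitted 1 mean for each of 15 groups over all 30 H3K27me3 libraries (15 residual degrees of freedom, eBayes with trend, Benjamini-Hochberg adjusted p under 0.05). The 10 IgG, H3K27ac and H3K4me3 samples were not analysed here. The trend is a linear contrast over days, per 21 days. Each limma p rests on the spread within pairs of libraries, pooled over all groups. The fit was tested on simulated data with gene means over all 30 libraries, the spread within groups, and shifts planted in the parental line. Most of the planted shifts were not called, so a gene without a call can still differ. Single values were compared with exact two-sided permutation tests (scipy 1.17.1, Python 3.11.15, pandas 2.3.3, numpy 2.4.6, matplotlib 3.10.9).

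Depth was estimated as background pileup from fold and p of the shortest 2% of peaks, assuming a pseudocount of 1 and a genome-wide background (tolerance 0.002 in -log10 p, window 0.01). Between 62 and 138 peaks per parental list gave a solution, 26 to 62 of them the same one. Longer lists come with deeper libraries, so a region outside a shallow list can still carry the mark.

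Replicate numbers were taken to pair the libraries because the deviation of replicate 1 from its day's mean correlated between every pair of days, over genes with r = 0.381 to 0.512 and over bins with r = 0.550 to 0.679 (across features, which are not independent). Replicate 1 was also the deeper library on every day, and coverage was not scaled for depth here. The correlation therefore cannot show that libraries of 1 replicate number belong together. The block is replicate number within each line, with 9 residual degrees of freedom. Alternatives were scaling by called length, lists shortened to equal length, pileup as covariate, stricter peaks, joined peaks, no filter, 100-kb bins, parental libraries alone and each library left out. The trend genes named are those called, filled to 20 by lowest unadjusted p and kept over 200 kb apart. The 11 gene lists, the members and these rules were chosen with earlier results of these data known, and the promoter readout, the strong-peak share and the pileup trend after seeing the data. CEP295NL and the promoters were named after their values were seen. Some items are not reported here.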

Additional observations from a re-analysis of the deposited data

Results flagged for a closer look

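The day 21 change differed between the NSD2-dTAG clones and the untagged parental line by a direct test of the difference (limma, adjusted p under 0.05). It was higher in the clones for 270 genes and lower for 12, and higher for 1631 bins of 25 kb and lower for 24. Both counts rest on the same 4 parental libraries, and with 1 of these left out both fell each time. The mean difference then ran from -0.855 to 4.22 points over genes, so its sign turned, and from 2.03 to 5.54 points over bins.

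The share of called length in strong peaks moved in opposite directions at days 14 and 21, up in every parental pair and down in every clone pair. The mean change was 8.39 points in the parental line against -19.3 in the clones at day 14, and 11.0 points against -17.3 at day 21. The exact test of that difference gave p = 0.0667, the smallest it can give, and adjusted p = 0.133 over 12 tests. The length in strong peaks did not fall in every clone pair. Against day 0 it was 0.842 to 1.11 times at day 14 and 0.730 to 2.24 times at day 21 in the clones. In the parental line it was 1.25 and 2.51 times, then 1.80 and 2.16 times. Pileup at day 21 was 1.47 and 1.33 times that of day 0 in the parental line and 1.23 to 2.55 times in the clones. The part of depth or of called length in the change of the share was not tested.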

How the results depend on the processing

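Under the alternatives that kept all parental libraries, at most 11 genes and 11 bins were called in any comparison, but their direction varied. Scaling by called length gave 3 genes at day 7, 2 at day 14, 10 at day 21, 11 over days 7 to 21 and 6 in the trend, and 1, 3 and 5 bins at day 14, at day 21 and in the trend. Lists of equal length gave 5, 7, 5, 5 and 4 genes in the 5 comparisons (2, 6, 5, 4 and 4 of them lower). For bins they gave 8, 5, 8, 11 and 8 (5, 5, 8, 11 and 8 of them lower). For promoters they gave 51 over days 7 to 21 (9 of them lower) and 27 in the trend (7 of them lower). With pileup as covariate 4 genes were called at day 21, 1 over days 7 to 21, and 3 promoters in the trend. No filter gave 7 genes at day 21 and 5 in the trend, 1, 6, 4 and 5 bins at day 7, at day 21, over days 7 to 21 and in the trend, and 16 promoters in the trend. Peaks with -log10 q of at least 5 left 0 genes at day 21 and in the trend, 1 bin at day 21 and 0 promoters in both comparisons. Joined peaks gave 3 bins at day 21 and in the trend. The parental libraries alone gave 0 genes at day 21 and in the trend, 1 over days 7 to 21, and 0 promoters in both comparisons. Scaling by called length gave 5 promoters over days 7 to 21, all of them lower.

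With the replicate block 12 promoters were called over days 7 to 21 and 3552 bins in the difference between clones and parental line. The block with scaling gave 1 gene at day 14 and in the trend, 3 bins at day 21 and 1 in the trend, and 4 promoters, all lower. The block with pileup gave 0 genes at day 21 and in the trend and 8 promoters. In exact tests within replicate number the trends of 20.5 Mb in length, 11.8 points in strong share and 0.758 in pileup had an unadjusted p under 0.05. The difference between clones and parental line numbered 1444 genes and 5487 bins with scaling, and 696 genes and 3315 bins with pileup. The length-per-pileup slope turned to 3.12 Mb with stronger peaks and 1.39 Mb with joined ones. Median overlap of same-day lists was 70.8%, and 45.8% at a reciprocal overlap of at least 50%. The trends of ZNF778 and CEBPD turned to -0.444 and -11.3 points in lists of equal length. The cause of these changes was not tested.

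Leaving out each library gave 0 to 8 genes at day 7, 0 to 6 at day 14, 4 to 64 at day 21, 1 to 11 over days 7 to 21 and 2 to 54 in the trend. The same gave 0 to 1 bins at day 7, 0 to 31 at day 21, 0 to 35 in the trend, 21 to 1125 promoters over days 7 to 21 and 12 to 959 in the trend. The highest gene counts at day 21 and in the trend came without day 21 replicate 2. The difference from the clones ranged from 8 to 78 genes and 0 to 9 bins. The length difference ranged from -6.56 to 30.7 Mb, its trend from 4.64 to 35.2 Mb, length per pileup from -3.71 to 1.17 Mb (1.17 without day 21 replicate 1), the strong share from 1.71 to 22.3 points and the pileup trend from 0.0809 to 1.31. Depth is known only through pileup, and 2 libraries a day limit every test.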
